A study of Homo sapiens with 18 samples.

Results

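The genes described here are 34 genes of the unfolded protein response and of protein folding in the endoplasmic reticulum (ER), measured in human HAP1 cells. They were picked by name for their textbook roles, with earlier results of these data known. Their symbols were matched to the gene identifiers of the count tables, which hold 63677 genes. All 34 were found and all 34 had enough reads to be tested. By role they comprise 6 sensors and transducers, 11 chaperones and cochaperones, 5 enzymes of oxidative folding, 8 components of ER-associated degradation, and 4 proteins of translocation, export and the ER membrane.

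HAP1 is a near-haploid line derived from a chronic myeloid leukaemia line. The 6 groups were ATG7KO cells in EBSS, ATG7KO cells in full medium, RB1CC1KO cells in EBSS, RB1CC1KO cells in full medium, parental (WT) cells in EBSS and WT cells in full medium, with 3 libraries each and 18 in all. ATG7 is the E1-like enzyme of autophagosome formation, and RB1CC1 (FIP200) is a scaffold in the kinase complex that starts autophagy. Full medium was IMDM with 10% fetal calf serum. EBSS (Earle's balanced salt solution) lacks amino acids and serum and was given for 6 h. The labels name a single line for each genotype, so the effect of a knockout and any other difference between lines cannot be told apart. They describe the RNA as coming from independent biological replicates.

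The unfolded protein response is run by ER membrane proteins that sense unfolded protein in the ER lumen. IRE1 (gene ERN1) is a kinase and RNase that splices XBP1 mRNA, PERK (gene EIF2AK3) is a kinase that phosphorylates the translation factor eIF2α, and ATF6 is a membrane-tethered transcription factor released by cleavage in the Golgi. Their known targets include ER chaperones, oxidoreductases, the machinery that sends misfolded proteins to the proteasome, and translocation and export factors. Phosphorylation of eIF2α is also the output of GCN2, a kinase activated by lack of amino acids, and leads to translation of ATF4.

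Reads in genes ran from 11994110 to 19073798 in 16 libraries, with 4892072 in ATG7KO EBSS replicate 3 and 26005942 in RB1CC1KO EBSS replicate 2. The mitochondrial genome took 1.41 to 2.36% of reads in the 9 EBSS libraries and 3.24 to 4.26% in the 9 full-medium libraries, and the part of this difference in the results below was not tested. ATG7 was at 4.51, 3.68 and 3.87 CPM (reads relative to library size, scaled by the TMM method) in ATG7KO cells in full medium, against 14.2, 15.7 and 16.8 CPM in WT cells in full medium. In EBSS it was at 10.98, 10.2 and 9.97 CPM in ATG7KO cells, against 16.0, 17.8 and 14.5 CPM in WT cells. The log2 fold change of ATG7KO over WT was -0.62 ± 0.12 in EBSS and -1.95 ± 0.12 in full medium (SE; adjusted p of the difference = 6.07e-06). RB1CC1 RNA was not lower in the libraries labelled RB1CC1KO, at 147, 171 and 152 CPM in full medium, against 94.2, 106 and 115 CPM in WT cells in full medium. A count per gene cannot reveal a small coding change, so the RNA gives no check of that label, and the name RB1CC1KO-labelled is used below. Of 11 haematopoietic markers, GATA1, HBG1 and MPO had 0 reads in all 6 groups, and 5 or 6 of the 11 were at 0 in each group. TAL1, KIT and RUNX1 were expressed, with 439 to 829, 128 to 245 and 164 to 298 reads in the WT full-medium libraries. The summed level of the list was 6.15 to 33.6 CPM in the EBSS libraries and 20.6 to 79.4 CPM in the full-medium libraries. It was 6.15 to 9.37 CPM in ATG7KO cells in EBSS, against 28.3 to 33.6 CPM in WT cells in EBSS. In full medium it was 20.6 to 21.4 CPM in ATG7KO cells, against 58.1 to 68.7 CPM in WT cells. Of 9 fibroblast and mesenchymal markers, DCN and LUM had 0 reads throughout, and the summed level was 958 to 1294 CPM in EBSS and 517 to 866 CPM in full medium. VIM alone was at 917 to 1248 CPM in EBSS and 496 to 812 CPM in full medium, while COL1A1 was at 13.1 to 19.3 CPM in EBSS and 17.3 to 25.3 CPM in full medium. Of 6 epithelial markers, 0 or 1 was at 0, and the summed level was 59.6 to 122 CPM in EBSS and 62.5 to 113 CPM in full medium. KRT18 and KRT8 made up most of that sum, with 860 to 1211 and 357 to 489 reads in the WT full-medium libraries. CDH1 had only 0 to 4 reads and KRT19 0 or 1 in each of the 18 libraries. Single markers differed between lines in both directions. In full medium ESRP1 had 178 to 291 reads in WT, 124 to 173 in ATG7KO and 1 to 3 in RB1CC1KO-labelled libraries. THY1 had 68 to 78, 4 to 14 and 0 to 2 reads in the same order, EPCAM 33 to 64, 1 to 5 and 0 to 5, and PDGFRA 263 to 425, 490 to 604 and 37 to 59. The part of these markers, and of their differences between lines, in the results was not tested.

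In WT cells, 6 h of EBSS raised 4 of the 6 sensors and transducers and 7 of the 8 degradation genes, while the chaperones were split. HERPUD1, an ER membrane adaptor of the degradation complex, rose 11.3-fold, and XBP1, the transcription factor made active by IRE1 splicing, rose 4.45-fold. ERN1 and EIF2AK3, which encode IRE1 and PERK, each rose 2.16-fold. HSPA5, the Hsp70 chaperone of the ER lumen known as BiP, fell, and so did PDIA4, PDIA6, SDF2L1, MANF and CRELD2. Of the 34 genes, 17 were called higher and 11 lower (p below 0.05 in edgeR's quasi-likelihood test after Benjamini-Hochberg adjustment over 15179 genes). Called genes made up 82.4% of the 34, against 64.5% of all genes tested, and 32.4% of all genes were called higher and 32.1% lower. Only 4 of the 34 changed at least 2-fold, against 19.7% of all genes, and their median absolute log2 fold change was 0.35, against 0.45 over all genes. The calls were thus mostly small changes. The 34 were not compared with genes of like expression level, on which call rates and sizes of change can depend. In RNA from whole cultures, a change in every cell and a change in a share of the cells cannot be told apart.

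The balance of higher and lower calls depended on how libraries were scaled. With upper-quartile scaling the median log2 fold change of all genes in WT was -0.17, against -0.02 with TMM, and the members split into 11 higher and 14 lower. Over all genes, 37.4% of the calls were then higher, against 50.3% with TMM. The smaller rises lost their calls under that scaling, with log2 fold changes of 0.11 for EDEM3, 0.11 for DERL2, 0.09 for ATF6, 0.05 for SEC61A1 and 0.25 for ERO1B (adjusted p = 0.0972 to 0.471). HYOU1 turned to -0.02 (adjusted p = 0.682), while CALR, PDIA3 and ERO1A became called lower, at -0.18, -0.23 and -0.24.

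**Figure D1:**
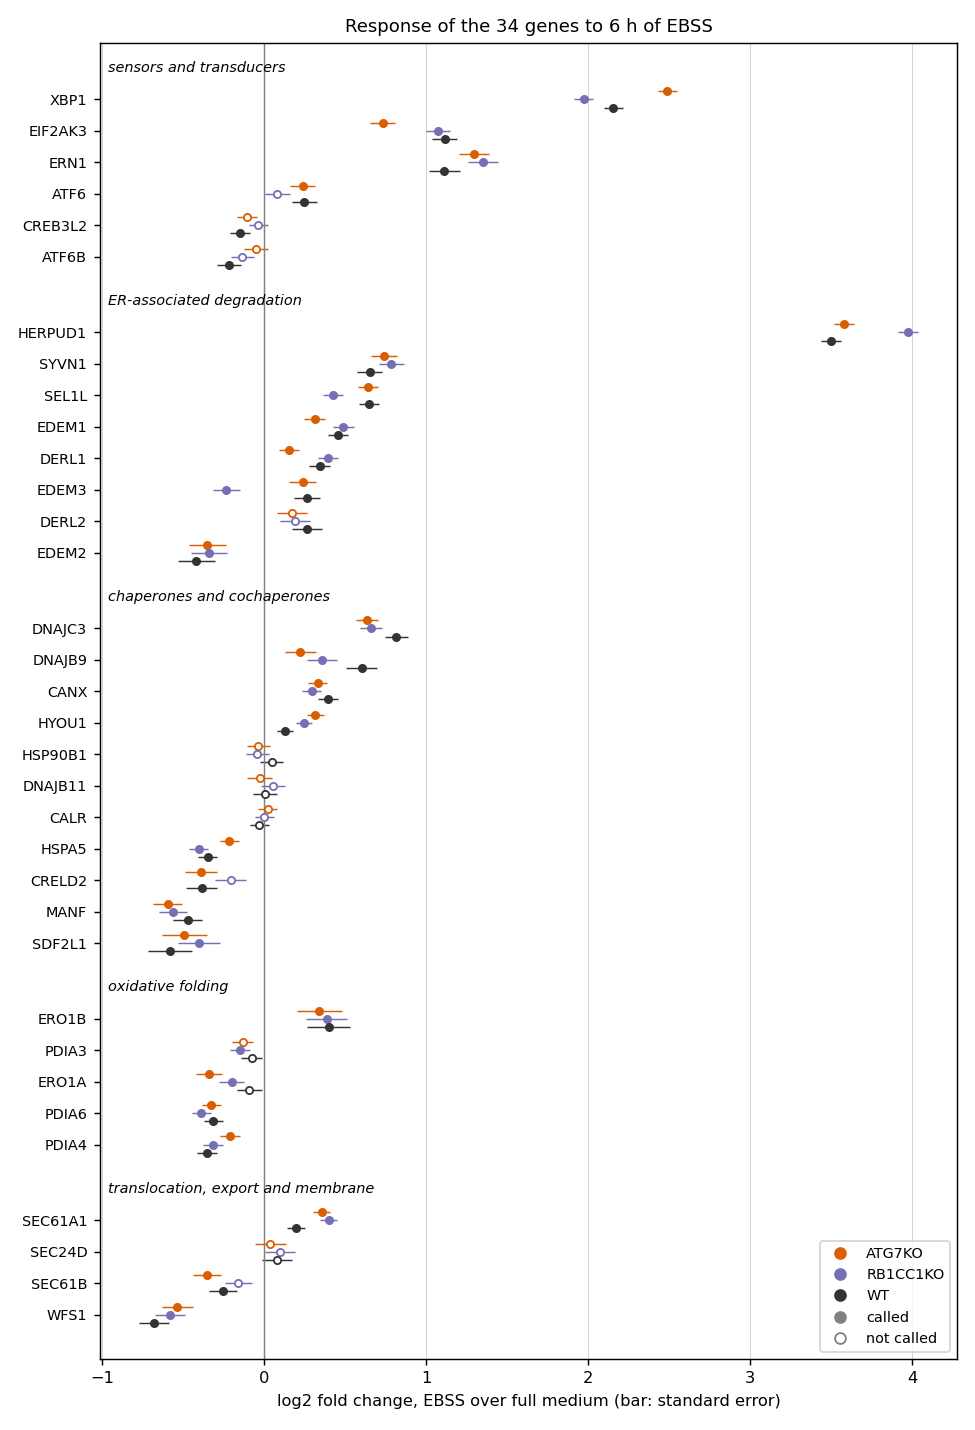
Log2 fold changes of EBSS against full medium for the 34 genes in each line, grouped by role, with bars of 1 standard error and filled points for called genes. HERPUD1 and XBP1 stand far to the right in all 3 lines, and most other genes lie within 1 log2 unit of 0.

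The 6 sensors and transducers are considered first. ERN1 stood at 40.0, 40.8 and 43.2 CPM in WT cells in EBSS, against 19.4, 18.01 and 20.2 CPM in full medium, a log2 fold change of 1.11 ± 0.09 (SE throughout; adjusted p = 1.77e-12). EIF2AK3 stood at 51.9, 51.1 and 56.6 CPM in EBSS, against 23.8, 25.2 and 24.6 CPM in full medium (1.11 ± 0.08, adjusted p = 4.19e-15). For both kinases every EBSS library was above every full-medium library. XBP1 stood at 382, 361 and 369 CPM in EBSS, against 86.3, 79.3 and 84.6 CPM in full medium (2.15 ± 0.06, adjusted p = 1.32e-26). The XBP1 groups were far apart, but gene counts do not separate spliced from unspliced XBP1 mRNA. The counts can share reads with the copy XBP1P1, which itself had 15 reads over the 18 libraries, against 59600 for XBP1. ATF6 stood at 71.5, 77.5 and 73.0 CPM in EBSS, against 54.6, 65.7 and 66.9 CPM in full medium (0.25 ± 0.08, adjusted p = 0.00587). ATF6B, its paralogue, stood at 64.2, 66.8 and 72.8 CPM in EBSS, against 78.8, 77.7 and 80.4 CPM in full medium (-0.22 ± 0.07, adjusted p = 0.00997). CREB3L2, another membrane-tethered transcription factor, stood at 124, 116 and 129 CPM in EBSS, against 132, 139.6 and 137 CPM in full medium (-0.15 ± 0.06, adjusted p = 0.0307). ATF6 thus rose slightly while ATF6B and CREB3L2 fell slightly. The call was lost for ATF6 without WT full-medium replicate 1 (adjusted p = 0.0781), for ATF6B without WT EBSS replicate 1 (adjusted p = 0.0604) and for CREB3L2 without WT EBSS replicate 1 or 2 or WT full-medium replicate 2 or 3 (adjusted p = 0.0538 to 0.161). CREB3L2 also missed the threshold when every gene with at least 1 read over the 18 libraries was tested (adjusted p = 0.0508).

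The same sensors in the other lines showed the same leading genes. ERN1 stood at 43.8, 51.1 and 45.8 CPM in ATG7KO cells in EBSS, against 16.5, 20.2 and 20.8 CPM in full medium (1.30 ± 0.10, adjusted p = 4.24e-14). In RB1CC1KO-labelled cells it stood at 47.0, 44.3 and 48.4 CPM in EBSS, against 20.8, 16.8 and 17.2 CPM in full medium (1.35 ± 0.09, adjusted p = 5.43e-15). The EBSS and full-medium libraries of ERN1 did not overlap in either line. EIF2AK3 stood at 41.9, 43.5 and 45.6 CPM in ATG7KO cells in EBSS, against 26.4, 25.6 and 26.5 CPM in full medium (0.73 ± 0.08, adjusted p = 3.22e-10). In RB1CC1KO-labelled cells it stood at 60.1, 59.7 and 62.5 CPM in EBSS, against 27.5, 30.5 and 28.7 CPM in full medium (1.07 ± 0.07, adjusted p = 3.53e-15). The rise of EIF2AK3 stayed under 2-fold in ATG7KO cells. ATF6 rose in ATG7KO cells (0.24 ± 0.08, adjusted p = 0.0092), and this call was lost without ATG7KO EBSS replicate 1 or 2 or ATG7KO full-medium replicate 3 (adjusted p = 0.0525 to 0.265). In RB1CC1KO-labelled cells ATF6 was not called (0.08 ± 0.08, adjusted p = 0.36). ATF6B had log2 fold changes of -0.05 ± 0.07 in ATG7KO and -0.14 ± 0.07 in RB1CC1KO-labelled cells, and CREB3L2 had -0.11 ± 0.06 and -0.04 ± 0.06 in the same lines. Neither was called there. ATF6B became called without RB1CC1KO-labelled EBSS replicate 3 (adjusted p = 0.0129) in the RB1CC1KO-labelled line, and CREB3L2 became called without ATG7KO EBSS replicate 1 (adjusted p = 0.00295) in ATG7KO cells. Leaving out that library also moved the median log2 fold change of all genes in ATG7KO cells, from -0.007 to -0.062.

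HERPUD1 had the largest response of the 34 genes in every line. It stood at 372, 383 and 381 CPM in ATG7KO cells in EBSS, against 31.2, 30.9 and 32.9 CPM in full medium (3.58 ± 0.06, adjusted p = 6.93e-32). In RB1CC1KO-labelled cells it stood at 484, 470.4 and 460.5 CPM in EBSS, against 29.2, 30.5 and 30.1 CPM in full medium (3.98 ± 0.06, adjusted p = 5.34e-33). In WT cells it stood at 341, 329 and 331 CPM in EBSS, against 28.3, 28.6 and 32.0 CPM in full medium (3.50 ± 0.06, adjusted p = 4.03e-31). Every EBSS library was more than 10 times above every full-medium library of the same line. XBP1 was second, at 405, 428 and 414 CPM in ATG7KO cells in EBSS, against 76.4, 74.2 and 71.5 CPM in full medium (2.49 ± 0.06, adjusted p = 1.86e-28). In RB1CC1KO-labelled cells XBP1 stood at 308, 293 and 307 CPM in EBSS, against 77.1, 74.8 and 79.5 CPM in full medium (1.97 ± 0.06, adjusted p = 1.36e-25). HERPUD1 (ENSG00000051108, chromosome 16, 56932048 to 56944863, plus strand) and XBP1 (ENSG00000100219, chromosome 22, 28794555 to 28800597, minus strand) are given here by their GRCh38 positions.

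The bases just upstream of these start sites were read for known elements of the response, and are shown for these leading genes and for 3 chaperones that carry the same elements and fell or were called in no line. RefSeq promoter windows of GRCh38.p14 (250 bases before to 50 after a start site) matched 31 of the 34 genes, with no window for PDIA3, DERL1 and SEC24D. Both strands were searched for the ER stress element (CCAAT, any 9 bases, CCACG), the ER stress element II (ATTGG, any 1 base, CCACG), the UPR element core TGACGTG and the amino acid response core (TGATG, any 1 base, AA). The bases of each window that lie before both the RefSeq start and the GENCODE gene are printed 5′ to 3′ on the gene's strand in lower case, with matches on either strand in capitals. HERPUD1 (chr16:56931892-56932047, plus strand) held an amino acid response core on the other strand from -176 to -169, counted from the start site, and an ER stress element II from -117 to -107. XBP1 (chr22:28800598-28800819, minus strand) held an ER stress element from -52 to -34. HSPA5 (chr9:125241344-125241593, minus strand), which fell, held an ER stress element from -66 to -48. SDF2L1 (chr22:21642052-21642260, plus strand), which fell, held an ER stress element II on the other strand from -188 to -178. CALR (chr19:12938359-12938577, plus strand), which was called in no line, held an ER stress element on the other strand from -225 to -207.
HERPUD1: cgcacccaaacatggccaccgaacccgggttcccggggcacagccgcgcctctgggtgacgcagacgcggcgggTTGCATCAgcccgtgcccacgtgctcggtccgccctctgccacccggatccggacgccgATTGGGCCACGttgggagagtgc
XBP1: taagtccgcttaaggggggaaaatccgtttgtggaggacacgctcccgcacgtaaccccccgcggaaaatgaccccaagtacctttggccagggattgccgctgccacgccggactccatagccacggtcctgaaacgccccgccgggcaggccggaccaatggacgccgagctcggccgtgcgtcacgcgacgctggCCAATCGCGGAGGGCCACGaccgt
HSPA5: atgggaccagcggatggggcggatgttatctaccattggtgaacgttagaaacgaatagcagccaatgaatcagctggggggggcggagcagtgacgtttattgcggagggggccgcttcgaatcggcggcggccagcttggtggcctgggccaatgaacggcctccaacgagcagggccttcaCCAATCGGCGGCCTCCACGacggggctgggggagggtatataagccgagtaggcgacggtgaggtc
SDF2L1: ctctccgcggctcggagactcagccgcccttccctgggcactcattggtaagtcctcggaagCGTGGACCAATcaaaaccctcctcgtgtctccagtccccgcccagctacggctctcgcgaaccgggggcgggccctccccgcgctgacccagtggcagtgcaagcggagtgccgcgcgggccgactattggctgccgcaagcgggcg
CALR: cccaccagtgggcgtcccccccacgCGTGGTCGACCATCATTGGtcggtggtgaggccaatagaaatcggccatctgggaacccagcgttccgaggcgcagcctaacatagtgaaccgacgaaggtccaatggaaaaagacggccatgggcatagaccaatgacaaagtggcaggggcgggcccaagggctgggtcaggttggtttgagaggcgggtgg

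The 31 genes with a window had 39 windows in all, since a gene can have more than 1. The ER stress element was found in 8 genes (CALR, CANX, CRELD2, ERO1B, HSP90B1, HSPA5, PDIA6 and XBP1). It was in 10 of the 39 windows, and in 0.0769% of the 35116 windows of all genes. The CANX windows that held it overlap one another and hold the same site, so the 10 are not independent. The ER stress element II was found in 3 genes (HERPUD1, HYOU1 and SDF2L1) and 3 of the 39 windows, and in 0.0541% of all windows. The UPR element core was found in 2 genes (HYOU1 and SEC61A1) and 2 of the 39 windows, and in 1.97% of all windows. It overlaps an ER stress element II in HYOU1. The amino acid response core was found in 2 genes (CREB3L2 and HERPUD1) and 2 of the 39 windows, and in 3.62% of all windows. Among genes called higher in all 3 lines, 3 of 13 with a window held the ER stress element, as did 2 of 7 called lower in all 3 lines and 2 of 3 called in none. HERPUD1 held both an ER stress element II and an amino acid response core, and no other of the 31 did. A match is a run of letters and not a shown binding site.

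**Figure D2:**
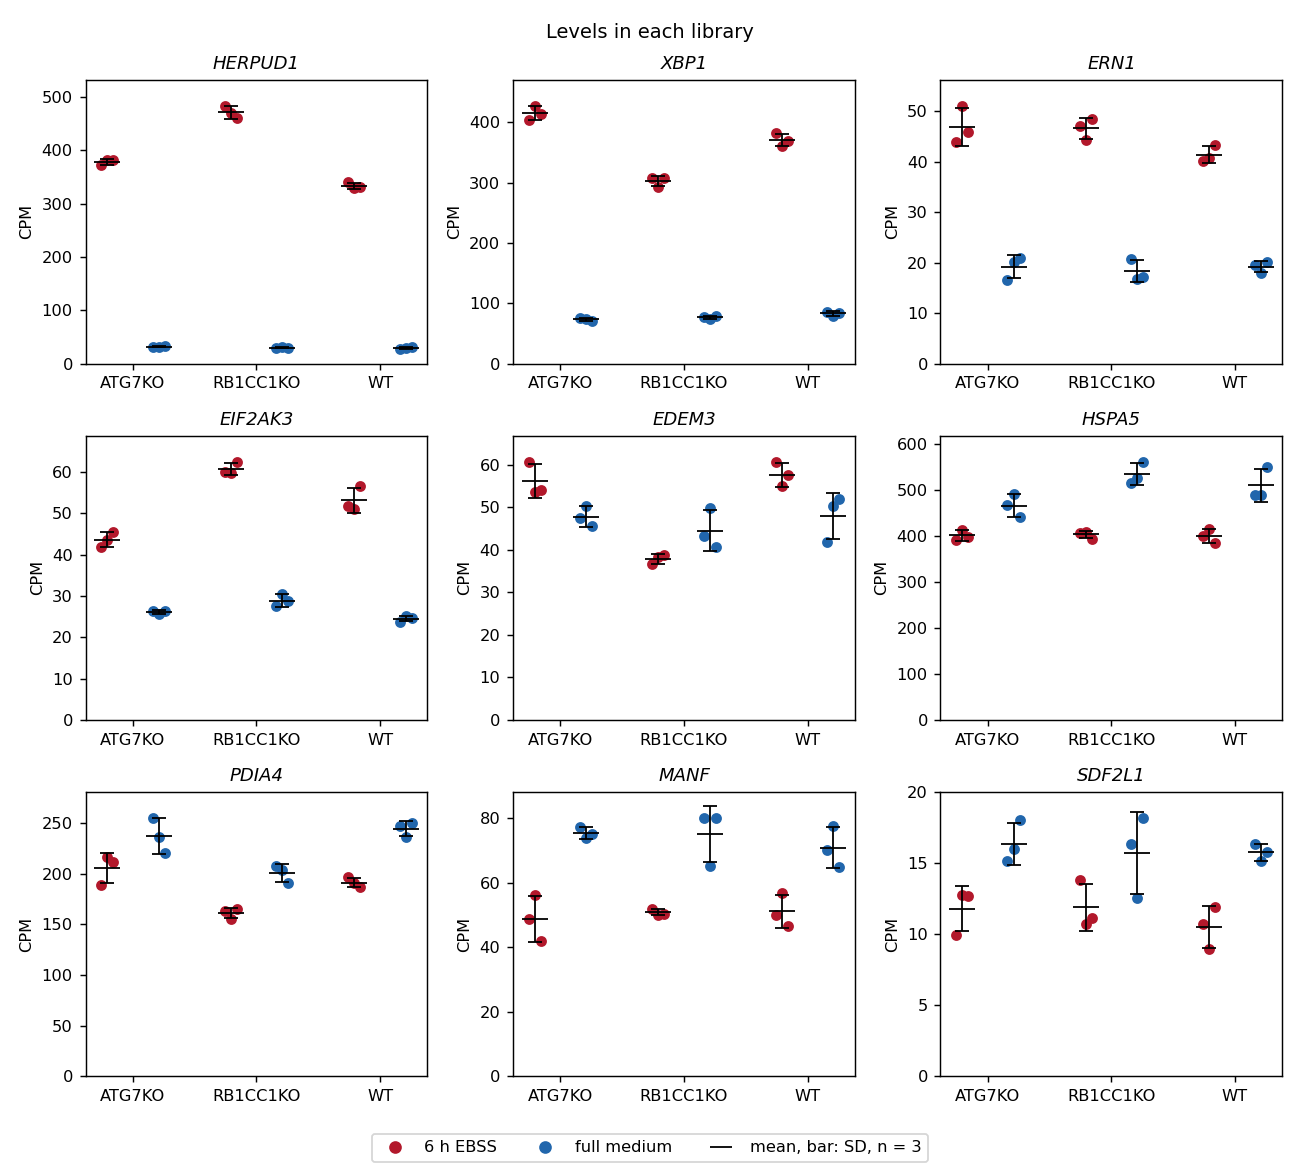
TMM-scaled CPM in each library of genes named in the text, by line and medium, with EBSS left of full medium, points for libraries and bars for the mean with 1 SD. HERPUD1 and XBP1 show wide gaps between media in all 3 lines, and EDEM3 is lower in RB1CC1KO-labelled cells in EBSS than in the other groups in EBSS.

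Among the 11 chaperones and cochaperones, 4 were called higher and 4 lower in WT cells in EBSS (72.7% called, against 64.5% of all genes). DNAJC3, a J-domain cochaperone of BiP, stood at 106, 104 and 91.1 CPM in EBSS, against 56.0, 58.8 and 56.3 CPM in full medium (0.82 ± 0.07, adjusted p = 1.54e-12). DNAJB9, a J-domain cochaperone that guides BiP to IRE1 and to degradation substrates, stood at 23.6, 25.0 and 22.1 CPM in EBSS, against 15.1, 14.9 and 16.8 CPM in full medium (0.60 ± 0.09, adjusted p = 1.09e-06). Both were higher in every EBSS library than in any full-medium library. The membrane lectin CANX, which holds glycoproteins for folding, also rose (0.39 ± 0.06, adjusted p = 6.33e-07). HYOU1, a nucleotide exchange factor of BiP, stood at 332, 331 and 329 CPM in EBSS, against 305, 297 and 306 CPM in full medium (0.13 ± 0.05, adjusted p = 0.0303). The HYOU1 call was lost without WT EBSS replicate 1 or 2 or WT full-medium replicate 2 (adjusted p = 0.064 to 0.0968), with every gene of at least 1 read tested (0.11, adjusted p = 0.175) and in a fit of the groups compared alone (0.13, adjusted p = 0.0547).

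The chaperones that fell in WT cells include the best known of the response. HSPA5 stood at 400.4, 414 and 385 CPM in EBSS, against 489.7, 489 and 550.3 CPM in full medium (-0.35 ± 0.06, adjusted p = 3.3e-06). SDF2L1, which works with the J-domain protein DNAJB11, stood at 10.7, 8.95 and 11.9 CPM in EBSS, against 16.4, 15.2 and 15.8 CPM in full medium (-0.58 ± 0.13, adjusted p = 0.000305). The groups did not overlap for either gene. MANF, a BiP-binding protein that is also secreted, stood at 50.01, 56.8 and 46.6 CPM in EBSS, against 70.2, 77.5 and 64.9 CPM in full medium (-0.47 ± 0.09, adjusted p = 2.25e-05). CRELD2, an ER protein induced by ER stress, stood at 41.6, 38.0 and 45.7 CPM in EBSS, against 59.6, 54.6 and 49.5 CPM in full medium (-0.39 ± 0.10, adjusted p = 0.000741). Again every EBSS library was below every full-medium library. HSP90B1, the ER form of Hsp90, CALR, the soluble lectin chaperone, and DNAJB11 were not called. Their log2 fold changes were 0.04 ± 0.07, -0.03 ± 0.06 and 0.00 ± 0.08.

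In the other lines the chaperone counts were close to those of WT, with 4 higher and 4 lower in ATG7KO and 4 higher and 3 lower in RB1CC1KO-labelled cells. Background shares of calls over all genes were 62.9% in ATG7KO and 65.1% in RB1CC1KO-labelled cells. HSPA5 stood at 391, 414 and 398 CPM in ATG7KO cells in EBSS, against 466, 491 and 441 CPM in full medium (-0.22 ± 0.06, adjusted p = 0.00179). In RB1CC1KO-labelled cells HSPA5 stood at 407, 409 and 394 CPM in EBSS, against 516, 526 and 561 CPM in full medium (-0.41 ± 0.06, adjusted p = 2.02e-07). BiP RNA thus fell in all 3 lines, with no overlap between media in any. MANF fell by 0.60 in ATG7KO and by 0.56 in RB1CC1KO-labelled cells on the log2 scale. SDF2L1 changed by -0.49 ± 0.14 in ATG7KO and -0.40 ± 0.13 in RB1CC1KO-labelled cells, and the second call was lost without RB1CC1KO-labelled EBSS replicate 2 or RB1CC1KO-labelled full-medium replicate 3 (adjusted p = 0.0597 to 0.0808). DNAJC3 rose by 0.63 ± 0.07 in ATG7KO and 0.66 ± 0.07 in RB1CC1KO-labelled cells. CANX rose by 0.33 ± 0.06 in ATG7KO and 0.29 ± 0.06 in RB1CC1KO-labelled cells. These rises and falls kept the WT directions.

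DNAJB9 rose in all 3 lines, least in ATG7KO. In ATG7KO cells it stood at 20.9, 20.4 and 19.9 CPM in EBSS, against 17.98, 17.5 and 17.3 CPM in full medium (0.22 ± 0.10, adjusted p = 0.0455). That call was lost without any single ATG7KO library (adjusted p = 0.0545 to 0.294) and under each of DESeq2 (0.21, adjusted p = 0.0869), RLE size factors (0.21, adjusted p = 0.0658), upper-quartile scaling (0.06, adjusted p = 0.6), no filter (0.21, adjusted p = 0.167) and the groups compared alone (0.20, adjusted p = 0.0807). In RB1CC1KO-labelled cells DNAJB9 rose by 0.35 ± 0.09 (adjusted p = 0.00113). Its exons overlap those of THAP5 and PNPLA8 on the opposite strand. HYOU1 rose by 0.31 ± 0.05 in ATG7KO and 0.24 ± 0.05 in RB1CC1KO-labelled cells, the second not called with upper-quartile scaling (0.10, adjusted p = 0.0706). CRELD2 fell in ATG7KO cells (-0.39 ± 0.10, adjusted p = 0.000904) and was just outside the threshold in RB1CC1KO-labelled cells (-0.21 ± 0.09, adjusted p = 0.054). CRELD2 became called in the RB1CC1KO-labelled line without RB1CC1KO-labelled EBSS replicate 1 or RB1CC1KO-labelled full-medium replicate 2 (adjusted p = 0.00785 to 0.032), with no filter (-0.22, adjusted p = 0.0212), with the groups compared alone (-0.21, adjusted p = 0.0449) and with upper-quartile scaling (-0.35, adjusted p = 0.00257).

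Of the 5 oxidative folding genes, 1 was called higher and 3 lower in ATG7KO, 1 higher and 4 lower in RB1CC1KO-labelled, and 1 higher and 2 lower in WT cells, where 30.6%, 33.3% and 32.1% of all genes in the same lines were called lower. PDIA4, a protein disulfide isomerase, stood at 196, 191 and 187 CPM in WT cells in EBSS, against 247, 237 and 250.3 CPM in full medium (-0.35 ± 0.06, adjusted p = 5.99e-06). PDIA6, another isomerase of this family, fell by 0.33 in ATG7KO, by 0.39 in RB1CC1KO-labelled and by 0.31 in WT cells on the log2 scale. PDIA4 fell by 0.21 in ATG7KO and by 0.32 in RB1CC1KO-labelled cells, and the ATG7KO call was lost without ATG7KO full-medium replicate 1 (adjusted p = 0.0515). The isomerases PDIA4 and PDIA6 thus fell in all 3 lines. ERO1A, the oxidase that recharges these isomerases, stood at 87.0, 74.6 and 76.4 CPM in ATG7KO cells in EBSS, against 98.6, 96.3 and 108 CPM in full medium (-0.34 ± 0.08, adjusted p = 0.00041). It was also called in RB1CC1KO-labelled cells (-0.20 ± 0.08, adjusted p = 0.0216) and not in WT (-0.09 ± 0.08, adjusted p = 0.306). The RB1CC1KO-labelled call was lost without RB1CC1KO-labelled EBSS replicate 1, 2 or 3 or RB1CC1KO-labelled full-medium replicate 2 (adjusted p = 0.0522 to 0.347). ERO1B, its paralogue, rose by 0.34 ± 0.14 in ATG7KO, 0.39 ± 0.13 in RB1CC1KO-labelled and 0.40 ± 0.13 in WT cells. Each ERO1B call was lost with some library left out, in ATG7KO without ATG7KO EBSS replicate 1 or 2 or ATG7KO full-medium replicate 1 (adjusted p = 0.111 to 0.189), in RB1CC1KO-labelled cells without RB1CC1KO-labelled full-medium replicate 1 (adjusted p = 0.0724) and in WT without WT EBSS replicate 2 (adjusted p = 0.0966). The ATG7KO call of ERO1B was also lost with DESeq2 (0.32, adjusted p = 0.0524) and with no filter (0.32, adjusted p = 0.068). With upper-quartile scaling the ERO1B call was lost in all 3 lines, at 0.18 in ATG7KO (adjusted p = 0.256), 0.24 in RB1CC1KO-labelled (adjusted p = 0.0856) and 0.25 in WT cells (adjusted p = 0.0972).

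PDIA3, the isomerase that works with calnexin and calreticulin, had log2 fold changes of -0.13 ± 0.06 in ATG7KO, -0.15 ± 0.06 in RB1CC1KO-labelled and -0.08 ± 0.06 in WT cells. It was called lower in the RB1CC1KO-labelled line (adjusted p = 0.0389), and the call was lost without RB1CC1KO-labelled EBSS replicate 1 or 3 or RB1CC1KO-labelled full-medium replicate 2 or 3 (adjusted p = 0.0911 to 0.153), with DESeq2 (-0.14, adjusted p = 0.0655) and with RLE size factors (-0.14, adjusted p = 0.0615). In ATG7KO cells (adjusted p = 0.0678) PDIA3 became called without ATG7KO EBSS replicate 1 or 2 or ATG7KO full-medium replicate 3 (adjusted p = 0.00318 to 0.0396). It was also called lower there with RLE size factors (-0.15, adjusted p = 0.0419), DESeq2 (-0.15, adjusted p = 0.0444), no filter (-0.15, adjusted p = 0.0455), the groups compared alone (-0.16, adjusted p = 0.0213) and upper-quartile scaling (-0.30, adjusted p = 9.74e-05). PDIA3 may share reads with its copies PDIA3P1 and PDIA3P2, which had 589 and 0 reads over the 18 libraries, against 123645 for PDIA3. The summed level of the 5 oxidative folding genes was 901 to 1011 CPM in WT cells in EBSS, against 1067 to 1128 CPM in full medium, and those ranges did not overlap. That of the 11 chaperones was 4321 to 4668 CPM in EBSS, against 4137 to 4323 CPM in full medium, where the ranges overlapped. As a share of all reads in genes the chaperones were lower in EBSS, at 0.416 to 0.446%, against 0.447 to 0.458% in full medium. The direction of the chaperone sum thus depends on the measure.

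All 8 genes of ER-associated degradation were called in WT cells, 7 of them higher, against 64.5% of all genes called and 32.4% called higher. SEL1L, the adaptor of the ubiquitin ligase HRD1, stood at 126, 120.1 and 128 CPM in EBSS, against 77.8, 80.9 and 80.0 CPM in full medium (0.65 ± 0.06, adjusted p = 4.45e-11). SYVN1, which encodes HRD1, stood at 69.2, 61.8 and 77.4 CPM in EBSS, against 45.0, 43.3 and 44.6 CPM in full medium (0.65 ± 0.08, adjusted p = 6.81e-09). The ligase and its adaptor rose together with no overlap between media. SYVN1 overlaps FAU on its own strand and MRPL49 on the other. EDEM1, a mannosidase-like protein that marks misfolded glycoproteins, rose by 0.45 ± 0.06 and DERL1, a membrane channel component, by 0.34 ± 0.06. EDEM2, which starts the mannose trimming, stood at 16.0, 13.6 and 16.1 CPM in EBSS, against 22.2, 17.9 and 21.3 CPM in full medium (-0.42 ± 0.11, adjusted p = 0.00162). EDEM2 was the degradation gene that fell, below full medium in every library. EDEM3 stood at 60.6, 54.9 and 57.5 CPM in EBSS, against 41.7, 50.3 and 51.9 CPM in full medium (0.26 ± 0.08, adjusted p = 0.00592). DERL2 rose by 0.26 ± 0.09 (adjusted p = 0.0134). The call of EDEM3 was lost without WT full-medium replicate 1 (adjusted p = 0.0767) and that of DERL2 without WT EBSS replicate 1 or 2 or WT full-medium replicate 1 (adjusted p = 0.0758 to 0.081).

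The summed level of the 8 degradation genes was 849 to 856 CPM in ATG7KO cells in EBSS, against 391 to 405 CPM in full medium. In RB1CC1KO-labelled cells it was 923 to 947 CPM in EBSS, against 379 to 408 CPM in full medium. In WT cells it was 796 to 835 CPM in EBSS, against 373 to 399.9 CPM in full medium. The ranges lay far apart in each line, and HERPUD1 made up most of the gain. SEL1L rose by 0.64 ± 0.06 in ATG7KO and 0.42 ± 0.06 in RB1CC1KO-labelled cells. SYVN1 rose by 0.74 ± 0.08 in ATG7KO and 0.78 ± 0.08 in RB1CC1KO-labelled cells. EDEM1 rose by 0.31 ± 0.07 in ATG7KO and 0.49 ± 0.06 in RB1CC1KO-labelled cells. These genes kept their WT direction in both lines. EDEM2 fell by 0.35 in ATG7KO and by 0.34 in RB1CC1KO-labelled cells, calls that were lost without ATG7KO EBSS replicate 1 or ATG7KO full-medium replicate 2 (adjusted p = 0.0533 to 0.065) and without RB1CC1KO-labelled full-medium replicate 2 (adjusted p = 0.052). DERL1 stood at 101, 112 and 102 CPM in RB1CC1KO-labelled cells in EBSS, against 75.1, 81.7 and 82.8 CPM in full medium (0.39 ± 0.06, adjusted p = 9.87e-07). Its smaller change in ATG7KO cells (0.15 ± 0.06, adjusted p = 0.038) lost its call without ATG7KO EBSS replicate 1, 2 or 3 or ATG7KO full-medium replicate 2 or 3 (adjusted p = 0.0655 to 0.419). With the other settings the ATG7KO call of DERL1 was also lost, with DESeq2 (0.14, adjusted p = 0.0724), RLE size factors (0.13, adjusted p = 0.0705), no filter (0.13, adjusted p = 0.179) and the groups compared alone (0.13, adjusted p = 0.093), and upper-quartile scaling put it at -0.01 (adjusted p = 0.892). DERL2 was not called in ATG7KO (0.17 ± 0.09, adjusted p = 0.115) or RB1CC1KO-labelled cells (0.19 ± 0.09, adjusted p = 0.0659). It became called higher in RB1CC1KO-labelled cells without RB1CC1KO-labelled EBSS replicate 3 (adjusted p = 0.0162) and with RLE size factors (0.20, adjusted p = 0.049).

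Of the 4 translocation, export and membrane genes, WFS1 changed most. WFS1 encodes wolframin, an ER membrane protein that dampens the unfolded protein response. It stood at 22.5, 22.1 and 20.6 CPM in ATG7KO cells in EBSS, against 33.6, 29.8 and 32.1 CPM in full medium (-0.54 ± 0.10, adjusted p = 8.7e-06). In RB1CC1KO-labelled cells it stood at 21.7, 19.6 and 21.7 CPM in EBSS, against 34.3, 28.9 and 30.9 CPM in full medium (-0.58 ± 0.09, adjusted p = 8.49e-07). In WT cells it stood at 18.2, 20.3 and 23.1 CPM in EBSS, against 35.3, 31.5 and 32.3 CPM in full medium (-0.68 ± 0.09, adjusted p = 7.45e-08). WFS1 was lower in every EBSS library of every line and had the most negative log2 fold change of the 34 in WT. SEC61A1, the pore of the translocon, rose by 0.35 ± 0.06 in ATG7KO, 0.40 ± 0.06 in RB1CC1KO-labelled and 0.20 ± 0.06 in WT cells. SEC61B, its small partner subunit, had -0.35 ± 0.09 in ATG7KO, -0.16 ± 0.08 in RB1CC1KO-labelled and -0.26 ± 0.08 in WT cells. SEC61B was called lower in ATG7KO (adjusted p = 0.000676) and WT (adjusted p = 0.00887), the WT call being lost without WT full-medium replicate 2 (adjusted p = 0.0578). The pore and its partner thus moved in opposite directions in ATG7KO and WT cells. SEC24D, a cargo adaptor of COPII vesicles, was called in no line, with values from 0.04 ± 0.10 to 0.10 ± 0.09.

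Across the lines, 14 of the 34 genes (41.2%) were called higher in all 3, against 25.2% of all genes tested. They were CANX, DNAJB9, DNAJC3, HYOU1, SEL1L, SYVN1, EDEM1, DERL1, HERPUD1, XBP1, ERN1, EIF2AK3, SEC61A1 and ERO1B. Another 7 (20.6%) were called lower in all 3, against 23.3% of all genes. These were HSPA5, PDIA4, PDIA6, SDF2L1, MANF, EDEM2 and WFS1. With upper-quartile scaling 9 (26.5%) were called higher in all 3, against 19.1% of all genes, and 14 (41.2%) lower in all 3, against 32.3% of all genes. The 9 were CANX, DNAJC3, SEL1L, SYVN1, EDEM1, HERPUD1, XBP1, ERN1 and EIF2AK3, and these were called higher in all 3 lines under every other alternative and without any single library too. The genes that joined those called lower in all 3 lines under that scaling were CALR, PDIA3, CRELD2, ATF6B, SEC61B, ERO1A and CREB3L2. Among the other alternatives, 10 to 14 were called higher and 7 or 8 lower in all 3 lines. HSP90B1, CALR, DNAJB11 and SEC24D, 11.8% of the 34, were called in none, against 19.8% of all genes. EDEM3 was the single gene with calls in opposite directions, higher in ATG7KO and WT and lower in RB1CC1KO-labelled cells. In ATG7KO cells 16 of the 34 were called higher and 10 lower (76.5%, against 62.9% of all genes), with a median log2 fold change of 0.09. Over all genes in ATG7KO cells, 32.3% were called higher and 30.6% lower. In RB1CC1KO-labelled cells 14 were called higher and 10 lower (70.6%, against 65.1% of all genes), with a median of 0.07. Over all genes in RB1CC1KO-labelled cells, 31.9% were called higher and 33.3% lower. At least 2-fold changes were called for 3 of the 34 in ATG7KO, against 19.2% of all genes, and for 4 in RB1CC1KO-labelled cells, against 21.5% of all genes. With upper-quartile scaling these splits became 11 higher and 16 lower in ATG7KO and 12 higher and 16 lower in RB1CC1KO-labelled cells. Under that scaling CALR was called lower in all 3 lines, at -0.14 in ATG7KO, -0.14 in RB1CC1KO-labelled and -0.18 in WT cells, and HSP90B1 in 2, at -0.20 in ATG7KO and -0.19 in RB1CC1KO-labelled cells. DNAJB11 (-0.19) was then called lower in ATG7KO. The rises of EDEM3 (0.07, adjusted p = 0.436) and ATF6 (0.07, adjusted p = 0.404) in ATG7KO cells lost their calls.

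Levels can be compared between genes only per length, here as CPM per kilobase of annotated exon. This length joins the exons of all annotated transcripts of a gene, so it can exceed that of the main transcript. Comparisons of close levels rest on it. CALR was highest, at 337 ± 5.41 in WT cells in EBSS and 345 ± 11.3 in full medium (SD, n = 3). HSP90B1 followed at 231 ± 19.8 in EBSS and 224 ± 17.1 in full medium, and CANX at 241 ± 10.5 in EBSS and 184 ± 4.22 in full medium. CANX, below HSP90B1 in full medium, was level with it within the spread in EBSS. HSPA5 stood at 102 ± 3.83 in EBSS and 130.4 ± 9.03 in full medium. XBP1 stood at 122 ± 3.52 in EBSS and 27.5 ± 1.21 in full medium, which brought a transcription factor transcript to the per-length level of HSPA5 or above. HERPUD1 stood at 64.7 ± 1.15 in EBSS and 5.74 ± 0.397 in full medium, close to PDIA6 in EBSS at 64.9 ± 4.19. The sensors ERN1 and EIF2AK3 stayed low, at 3.80 ± 0.152 and 9.78 ± 0.548 in EBSS and at 1.77 ± 0.101 and 4.52 ± 0.131 in full medium. The share of all reads in genes taken by the 34 was 0.719 to 0.752% in WT EBSS libraries and 0.712 to 0.728% in WT full-medium libraries, and these ranges overlapped. In TMM-scaled CPM their sum was 7475 to 7876 in WT EBSS libraries, against 6597 to 6878 in WT full-medium libraries, with no overlap. Whether the 34 took more in EBSS thus depends on the measure.

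**Figure D3:**
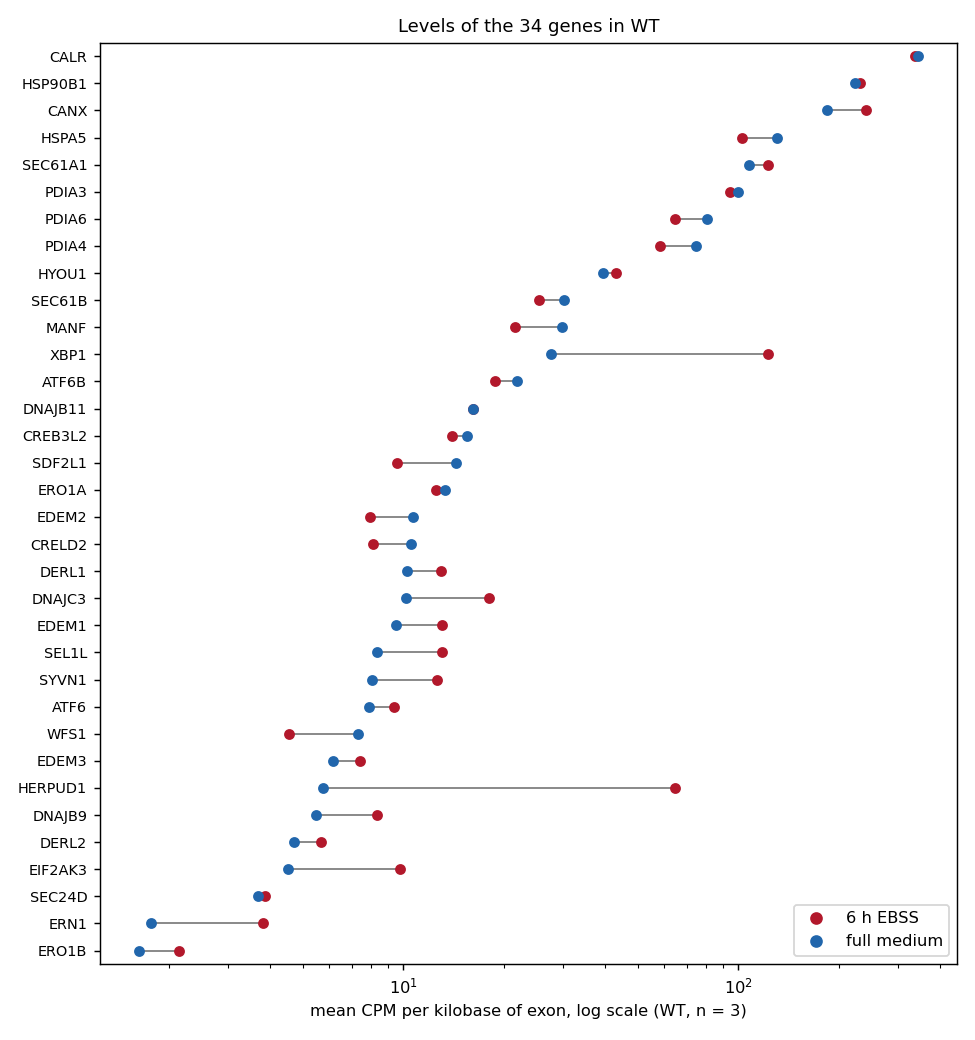
Mean level per kilobase of exon (CPM per kilobase, log axis) of the 34 genes in WT cells, the mean of 3 libraries in EBSS and in full medium, ordered by the level in full medium. The lectin chaperones and HSP90B1 stay at the top in both media, and HERPUD1 and XBP1 shift upward by the widest margin in EBSS.

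A further 112 genes of the same pathways, listed by role, gave context, and 111 of them were tested. Of 19 tested genes of unfolded protein response signalling, 12 were called higher and 2 lower in ATG7KO, 11 and 3 in RB1CC1KO-labelled, and 11 and 3 in WT cells (73.7% called in each line, against 62.9%, 65.1% and 64.5% of all genes). Their median log2 fold change in WT was 0.43, against -0.02 over all genes. DDIT3, the transcription factor CHOP downstream of PERK and of GCN2, was at 154, 156 and 152 CPM in WT cells in EBSS, against 8.19, 7.44 and 9.21 CPM in full medium (4.23 ± 0.08, adjusted p = 7.8e-31). CEBPB, its dimer partner, changed by 4.19 ± 0.30 and the stress factor ATF3 by 4.09 ± 0.09. These RNAs rose alongside XBP1 and HERPUD1.

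Of 34 further folding genes, 10 were called higher and 12 lower in WT, a median of 0.00, with 64.7% called, against 64.5% of all genes. HSPA13, an ER-associated Hsp70, changed by 1.76 ± 0.07, CNPY2, an ER-resident saposin-like protein, by -0.81 ± 0.15, and MESD, the chaperone of LDL receptor family proteins, by -0.75 ± 0.07. Of 27 further degradation genes, 12 were called higher and 6 lower in ATG7KO, 12 and 4 in RB1CC1KO-labelled, and 17 and 7 in WT cells. These were 66.7% called in ATG7KO, 59.3% in RB1CC1KO-labelled and 88.9% in WT cells, against 62.9%, 65.1% and 64.5% of all genes in the same lines. The ER ubiquitin ligases RNF185 and MARCHF6 changed by 0.96 ± 0.08 and 0.71 ± 0.06 in WT, and HERPUD2, the paralogue of HERPUD1, by 0.82 ± 0.08. All of these rose. Of 31 further genes of translocation, signal peptide cleavage and COPII, 9 were called higher and 9 lower in WT (58.1% called, against 64.5% of all genes). PREB, which loads the COPII GTPase SAR1, changed by -1.05 ± 0.08, SPCS3, a signal peptidase subunit, by -0.96 ± 0.07, and SEC24B, a COPII cargo adaptor, by 0.80 ± 0.07. The changes of the 9 genes named in these sentences were all called in WT.

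In full medium the lines differed little in the 34 genes. In ATG7KO cells against WT in full medium, 0 were called higher and 2 lower (5.88%, against 10.5% of all genes tested, 4.47% higher and 6.07% lower). HYOU1 stood at 267, 262 and 255 CPM in ATG7KO, against 305, 297 and 306 CPM in WT (-0.21 ± 0.05, adjusted p = 0.0049). CREB3L2 stood at 117, 117 and 112 CPM in ATG7KO, against 132, 139.6 and 137 CPM in WT (-0.24 ± 0.06, adjusted p = 0.00643). Both were lower in every ATG7KO library. SYVN1 and XBP1 lay just outside the threshold, at -0.24 ± 0.08 (adjusted p = 0.0502) and -0.17 ± 0.06 (adjusted p = 0.058). SYVN1 became called without ATG7KO full-medium replicate 3 (adjusted p = 0.0432) and in a fit of the groups compared alone (-0.23, adjusted p = 0.0361). XBP1 became called without WT full-medium replicate 2 (adjusted p = 0.0391) and with DESeq2 (-0.17, adjusted p = 0.043).

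For RB1CC1KO-labelled cells against WT in full medium, 2 were called higher and 1 lower (8.82%, against 17.2% of all genes, 8.3% higher and 8.87% lower). PDIA4 stood at 208, 204 and 191 CPM in RB1CC1KO-labelled cells, against 247, 237 and 250.3 CPM in WT (-0.28 ± 0.06, adjusted p = 0.000868). SEL1L stood at 85.9, 95.1 and 90.2 CPM in RB1CC1KO-labelled cells, against 77.8, 80.9 and 80.0 CPM in WT (0.18 ± 0.06, adjusted p = 0.0387). EIF2AK3 stood at 27.5, 30.5 and 28.7 CPM in RB1CC1KO-labelled cells, against 23.8, 25.2 and 24.6 CPM in WT (0.23 ± 0.08, adjusted p = 0.0326). PDIA4 was lower in every RB1CC1KO-labelled library, and its call held without any single library. The SEL1L call was lost without RB1CC1KO-labelled full-medium replicate 2 or 3 or WT full-medium replicate 1, 2 or 3 (adjusted p = 0.0622 to 0.187) and that of EIF2AK3 without RB1CC1KO-labelled full-medium replicate 2 or 3 or WT full-medium replicate 1 or 3 (adjusted p = 0.0675 to 0.157). The SEL1L call was also lost with RLE size factors (0.18, adjusted p = 0.0556), and both were lost with upper-quartile scaling, no filter and the groups compared alone (adjusted p = 0.0543 to 0.117).

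After EBSS the ATG7KO and WT lines differed in 5 of the 34 genes, 2 higher and 3 lower (14.7%, against 13.2% of all genes, 6.07% higher and 7.17% lower). EIF2AK3 stood at 41.9, 43.5 and 45.6 CPM in ATG7KO cells in EBSS, against 51.9, 51.1 and 56.6 CPM in WT cells in EBSS (-0.29 ± 0.07, adjusted p = 0.00548). All ATG7KO libraries were below all WT libraries, and the call held without any single library. ERO1A stood at 87.0, 74.6 and 76.4 CPM in ATG7KO, against 97.0, 96.5 and 90.1 CPM in WT (-0.25 ± 0.08, adjusted p = 0.0361). CREB3L2 stood at 116, 104 and 99.5 CPM in ATG7KO, against 124, 116 and 129 CPM in WT (-0.20 ± 0.06, adjusted p = 0.0286). HERPUD1 was higher by 0.18 ± 0.05 (adjusted p = 0.0201) and XBP1 by 0.16 ± 0.05 (adjusted p = 0.0409). Both HERPUD1 and XBP1 were higher in every ATG7KO library in EBSS. Each of these 4 calls rested on single libraries. The ERO1A call was lost without ATG7KO EBSS replicate 2 or 3 or WT EBSS replicate 1 or 2 (adjusted p = 0.106 to 0.197), CREB3L2 without ATG7KO EBSS replicate 2 or 3 or WT EBSS replicate 1 or 3 (adjusted p = 0.0843 to 0.136), HERPUD1 without ATG7KO EBSS replicate 1, 2 or 3 or WT EBSS replicate 2 or 3 (adjusted p = 0.0513 to 0.123) and XBP1 without any single library (adjusted p = 0.054 to 0.264). Without a filter HERPUD1, XBP1 and CREB3L2 missed the threshold (adjusted p = 0.0634 to 0.132), as did XBP1 with RLE size factors (0.15, adjusted p = 0.0618), and XBP1 and CREB3L2 with the groups compared alone.

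RB1CC1KO-labelled and WT cells differed in more of the 34 genes in EBSS, with 4 higher and 3 lower in the RB1CC1KO-labelled line (20.6%, against 31.6% of all genes, 14.8% higher and 16.9% lower). EDEM3 stood at 36.6, 38.3 and 38.8 CPM in RB1CC1KO-labelled cells in EBSS, against 60.6, 54.9 and 57.5 CPM in WT cells in EBSS (-0.61 ± 0.08, adjusted p = 5.15e-07). HERPUD1 stood at 484, 470.4 and 460.5 CPM in RB1CC1KO-labelled cells, against 341, 329 and 331 CPM in WT (0.50 ± 0.05, adjusted p = 3.52e-09). Within the degradation machinery, EDEM3 was thus lower and HERPUD1 higher, each with no overlap between the lines. XBP1 stood at 308, 293 and 307 CPM in RB1CC1KO-labelled cells, against 382, 361 and 369 CPM in WT (-0.29 ± 0.05, adjusted p = 5.94e-05). PDIA4 stood at 163, 155 and 166 CPM in RB1CC1KO-labelled cells, against 196, 191 and 187 CPM in WT (-0.25 ± 0.06, adjusted p = 0.00215). XBP1 and PDIA4 were lower in every RB1CC1KO-labelled library, and PDIA4 was so in full medium too. Smaller increases were called for DERL1 (0.19 ± 0.06, adjusted p = 0.016), EIF2AK3 (0.19 ± 0.07, adjusted p = 0.0335) and SEC61A1 (0.14 ± 0.05, adjusted p = 0.0466). DERL1 lost its call without RB1CC1KO-labelled EBSS replicate 2 or WT EBSS replicate 3 (adjusted p = 0.062 to 0.0886), EIF2AK3 without RB1CC1KO-labelled EBSS replicate 3 or WT EBSS replicate 1 or 2 (adjusted p = 0.0652 to 0.131) and SEC61A1 without RB1CC1KO-labelled EBSS replicate 2 or 3 or WT EBSS replicate 1 or 2 (adjusted p = 0.0528 to 0.166). All 3 missed the threshold without a filter (adjusted p = 0.0514 to 0.124). EIF2AK3 (0.18, adjusted p = 0.0757) and SEC61A1 (0.13, adjusted p = 0.0965) also missed it with the groups compared alone, and SEC61A1 with upper-quartile scaling (0.13, adjusted p = 0.0676). ATF6B, not called, became called without RB1CC1KO-labelled EBSS replicate 1 (adjusted p = 0.0428).

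**Figure D4:**
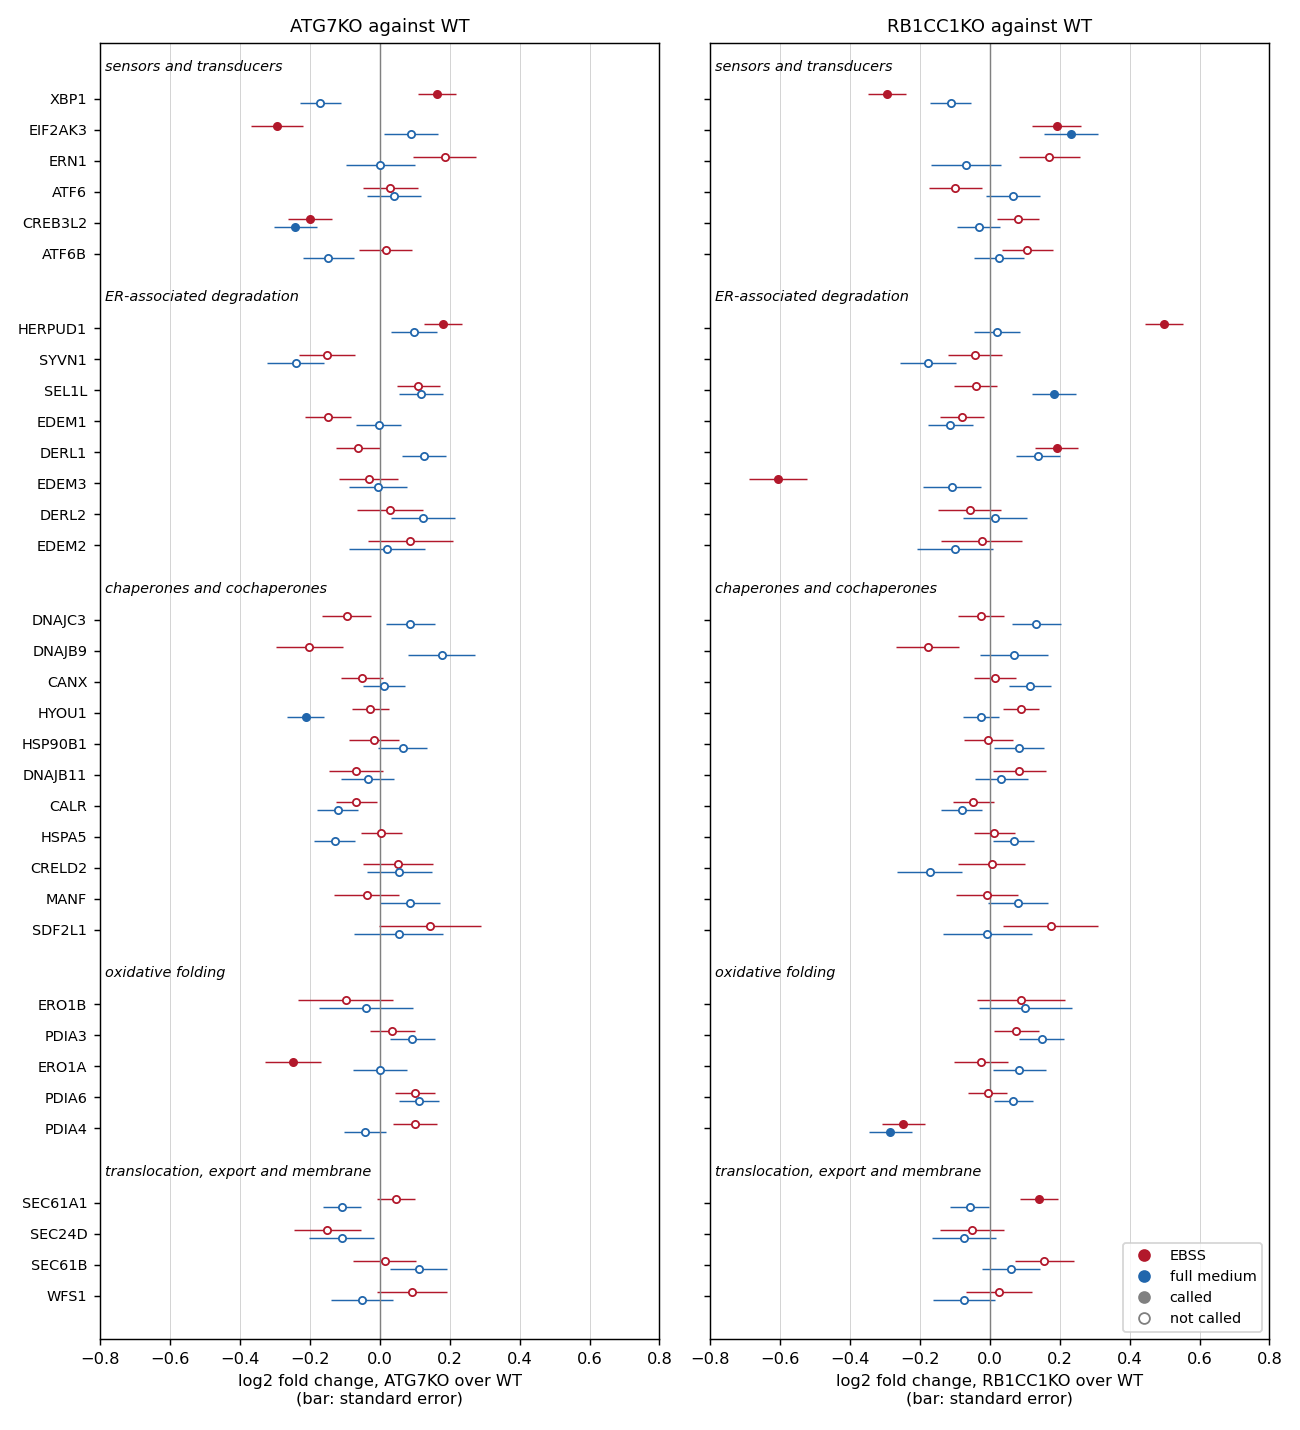
Log2 fold changes of the 34 genes between lines, ATG7KO against WT and RB1CC1KO-labelled against WT, in EBSS and in full medium, with bars of 1 standard error and filled points for called genes. EDEM3 and HERPUD1 lie farthest from 0, both in RB1CC1KO-labelled cells in EBSS.

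Whether a line responded to EBSS differently from WT was tested as the difference of the log2 responses, in which the comparisons of both lines share the WT libraries. For ATG7KO minus WT, 1 of the 34 was called (2.94%, against 1.05% of all genes, 0.369% higher and 0.685% lower). This was XBP1, whose response was larger in ATG7KO by 0.33 ± 0.08 on the log2 scale (adjusted p = 0.0268). The XBP1 call was lost without ATG7KO EBSS replicate 2 or 3, ATG7KO full-medium replicate 2 or 3, WT EBSS replicate 2 or WT full-medium replicate 1 or 3 (adjusted p = 0.0512 to 0.156). EIF2AK3 had the most negative difference, -0.38 ± 0.11 (adjusted p = 0.075), which was called by DESeq2 (-0.39, adjusted p = 0.0363). DNAJB9 had nearly the same value, -0.38 ± 0.14, and was not called (adjusted p = 0.17). For RB1CC1KO-labelled minus WT, 2 were called (5.88%, against 8.16% of all genes, 2.68% higher and 5.47% lower). HERPUD1 rose more in the RB1CC1KO-labelled line, by 0.48 ± 0.09 (adjusted p = 0.000274). EDEM3 fell in that line and rose in WT, a difference of -0.50 ± 0.12 (adjusted p = 0.00587). EDEM3 stood at 36.6, 38.3 and 38.8 CPM in RB1CC1KO-labelled cells in EBSS, against 43.2, 49.8 and 40.6 CPM in full medium (-0.23 ± 0.08, adjusted p = 0.0146), and this fall was not called without RB1CC1KO-labelled EBSS replicate 1 or RB1CC1KO-labelled full-medium replicate 2 (adjusted p = 0.0589 to 0.158). In ATG7KO cells EDEM3 stood at 60.7, 53.6 and 54.1 CPM in EBSS, against 47.4, 50.4 and 45.7 CPM in full medium (0.24 ± 0.08, adjusted p = 0.0151), a rise not called without ATG7KO EBSS replicate 1 or ATG7KO full-medium replicate 3 (adjusted p = 0.0617 to 0.352). The HERPUD1 and EDEM3 differences for the RB1CC1KO-labelled line held without any single library and in every alternative run. XBP1, larger in ATG7KO, had a difference of -0.18 ± 0.08 in RB1CC1KO-labelled cells, which was not called (adjusted p = 0.166). SEC61A1 had 0.20 ± 0.08 (adjusted p = 0.115) and was called by DESeq2 (0.22, adjusted p = 0.0312). The other members had differences between -0.25 (DNAJB9) and 0.24 (ERN1) in the RB1CC1KO-labelled line, each missing the threshold, which does not show that the responses were alike. The 2 knockout-labelled lines were not compared with each other here.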

How the data were processed

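The authors deposited raw read counts as whole numbers, a table for each of the 18 libraries with 63677 Ensembl identifiers. Per the labels' protocols, polyadenylated RNA was sequenced with a directional kit as 75 bp single-end reads. The submitters' processing notes list HTSeq 0.6.1p1, STAR 2.4.2a, DESeq2, Picard and edgeR, with no roles, and the build GRCh37 (hg19). For the counting, neither strand setting nor annotation release is given in the sources used here, so reads of overlapping genes on opposite strands (DERL2 and MIS12, SEC61A1 and RUVBL1, CRELD2 and ALG12 among others) cannot be told apart with certainty.

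The 5 summary lines stayed out of library sizes and tests. Reads in no gene were 9.39 to 15.1% of uniquely aligned reads, and ambiguous reads 2.08 to 2.42%. Symbols were matched for 52181 identifiers. Exon lengths and positions are from GENCODE on GRCh38, a later build than that of the counts. With edgeR 4.0.16 in R 4.3.3, filterByExpr kept 15179 genes, TMM scaled the libraries, and all 18 libraries entered 1 quasi-likelihood model of the 6 group means, with robust spread estimates (common biological coefficient of variation 6.72%). There were 9 comparisons: EBSS with full medium within a line (3), another line with WT within a medium (4), and the differences of responses from WT (2). Called means a Benjamini-Hochberg adjusted p below 0.05 over all 15179 genes. The SE is the log2 fold change divided by the square root of F.

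The members, their roles, the further pathway lists, the markers and the tests were chosen with earlier results of these data known. Values in each library are given for all sensors, for the 8 most positive and 6 most negative called members in WT, for up to 6 called members with the largest change between lines, and for members called in a response difference. Other members are named by their log2 fold changes, and from each further list the 3 genes called in WT with the largest absolute log2 fold change and a mean log2 CPM of at least 1. Alternatives were upper-quartile and RLE scaling, DESeq2 1.42.0, no filter beyond 1 read over the 18 libraries, a fit of the groups compared alone, a block on replicate number, and leaving out each library. The counts of genes called in all 3 lines were recomputed under these after the data were seen. Scripts were tested on simulated counts. Replicates differed by more than sampling noise (chi-square per degree of freedom 2.40 to 11.5), so none was counted as a duplicate.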

Additional observations from a re-analysis of the deposited data

Results flagged for a closer look

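The EBSS response of 3 of the 34 genes differed between lines by the test of the difference itself. XBP1 rose more in ATG7KO than in WT cells, a difference of 0.33 ± 0.08 on the log2 scale (SE; edgeR's quasi-likelihood test, adjusted p = 0.0268), with responses of 2.49 in ATG7KO and 2.15 in WT. Leaving out any of 7 of the 12 libraries ended this call. HERPUD1 rose more in RB1CC1KO-labelled than in WT cells, a difference of 0.48 ± 0.09 (adjusted p = 0.000274), with responses of 3.98 in RB1CC1KO-labelled and 3.50 in WT cells. EDEM3 had a difference of -0.50 ± 0.12 (adjusted p = 0.00587), with responses of -0.23 in RB1CC1KO-labelled and 0.26 in WT cells. These last 2 calls held without any single library and under every alternative run. Each genotype was a single line, and RB1CC1 RNA gives no check of the RB1CC1KO label, so the knockout and other differences between the lines cannot be told apart.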

How the results depend on the processing

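Counts of called members in the EBSS comparisons were within 1.5 times of those reported under every alternative except upper-quartile scaling, which gave 11 higher in WT, 16 lower in ATG7KO and 16 lower in RB1CC1KO-labelled cells. Genes called in all 3 lines then numbered 14 lower and 9 higher, and 10 to 14 higher and 6 to 8 lower without single libraries. Among members called under TMM or upper-quartile scaling, the direction turned for HYOU1 in WT (-0.0243) and for CALR (-0.14) and DERL1 (-0.0104) in ATG7KO. It also turned for CALR in RB1CC1KO-labelled cells (-0.14). Turns of members called under neither scaling are not listed here. Upper-quartile scaling moves the median of all genes by a like amount, so directions of changes this small rest on the scaling. Without single libraries, EBSS calls in WT ran from 14 to 17 higher and 9 to 11 lower, in ATG7KO from 11 to 14 higher and 9 to 11 lower, and in RB1CC1KO-labelled cells from 13 to 15 higher and 7 to 10 lower. Without ATG7KO EBSS replicate 1 or 2, the median of all genes in ATG7KO moved from -0.007 to -0.062 or -0.063. The part of this move in the ATG7KO calls gained or lost without those libraries was not tested.

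The line comparisons gave few calls, and their counts moved readily. Against WT in full medium, ATG7KO had 2 to 3 lower without single libraries. RB1CC1KO-labelled cells had 0 to 2 higher without single libraries, 1 with RLE size factors, and 0 with upper-quartile scaling, with no filter and with the groups compared alone. Against WT in EBSS, ATG7KO had 0 to 1 higher and 1 to 3 lower without single libraries, and 1 higher with RLE size factors, 0 with no filter and 1 with the groups compared alone. RB1CC1KO-labelled cells had 2 to 5 higher without single libraries, 1 with no filter and 2 with the groups compared alone. For the difference of responses, ATG7KO minus WT had 0 to 1 higher without single libraries and 1 lower with DESeq2, and RB1CC1KO-labelled minus WT had 2 higher with DESeq2. The cause was not tested, beyond that leaving out libraries leaves fewer samples and dropping the filter adds genes to the adjustment.

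Replicate numbers gave no consistent pairing of the libraries. Deviations of same-numbered libraries correlated from -0.477 to 0.629 (median 0.0489), over 0.1 in 20 of 45 pairs. Those of differently numbered libraries correlated from -0.611 to 0.574 (median -0.0356), over 0.1 in 32 of 90 pairs. Libraries numbered 2 correlated with one another at 0.254 to 0.629, except ATG7KO EBSS replicate 2, at -0.326 to -0.0113 with the others. ATG7KO EBSS replicate 1 correlated with those others at 0.289 to 0.564. A shared grouping of libraries that crosses the numbers is thus possible, and a block on replicate number cannot take it up. A shared source of these deviations was not tested. A block on replicate number gave 4 lower in ATG7KO against WT in full medium, adding SYVN1 and XBP1, and added PDIA3 in ATG7KO and CRELD2 in RB1CC1KO-labelled cells to the genes called lower in EBSS. It changed no other call. The shallow ATG7KO EBSS replicate 3, with 4892072 reads in genes, limits the lowest members most, ERO1B and SDF2L1 among them.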
